A study of Homo sapiens with 10 samples.

Results

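The long arm of chromosome 16 carries a block of 178 genes that were, as a group, lower in a U2OS-derived line labelled p53 KO than in its partner line labelled p53 WT. Members are the entries listed on chromosome 16 between positions 54952775 and 89987385 whose FPKM averaged at least 5 over all 10 libraries. FPKM counts sequenced fragments scaled for the length of the transcript and for the size of the library. Of 397 entries listed within these 35.03 Mb, 195 reached that level, and 17 of them were left out by symbol, which leaves 178 members of 25593 entries in all and of 10485 entries with a mean FPKM of at least 5. The block was picked because its genes were lower in KO-labelled cells. The values of KO-labelled against WT-labelled cells are therefore given as a description, with no test, and tests are given for the response to SET siRNA.

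The long arm of chromosome 16, called 16q, holds genes of many unrelated functions. Among them are the scaffold of the CCR4-NOT deadenylase complex, which shortens the poly(A) tails of mRNAs, the insulator protein CTCF, subunits of the proteasome and of RNA polymerase II, shelterin proteins that protect telomeres, and cadherins that join cells to each other. Neighbouring genes on a chromosome arm share their DNA molecule but mostly not their regulators. U2OS is a human osteosarcoma line with a rearranged karyotype, and DNA of the lines was not analysed here.

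Total RNA was sequenced from 10 libraries in 4 groups, all from cells derived from U2OS and harvested 96 h after siRNA transfection. KO-labelled cells received SET siRNA (n = 2) or control siRNA (n = 2), and WT-labelled cells received SET siRNA (n = 3) or control siRNA (n = 3). SET is a histone chaperone and phosphatase inhibitor that binds p53, and the series title places the question in genes regulated by p53 together with SET. The 2 lines came from transfection with a CRISPR/Cas9 construct followed by selection and clone identification, so each label stands for 1 line, and what belongs to the p53 label and what belongs to the line cannot be told apart. The series text is contradictory, since it gives SET as the CRISPR target while describing a p53 knockout. How far cultures of a group were kept apart is not stated in the labels, and the p-values below then reflect the spread among these particular libraries, which may be technical. The siRNA sequences were not given.

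Depth was not stated. Between 13804 and 14153 genes reached FPKM 1 per library, and the half-width of the authors' confidence interval for a member was 7.22% of its FPKM in the median, with 10th and 90th percentiles of 4.11% and 12.9%. The labels were checked with SET, which was 14.9 and 14.9 FPKM with SET siRNA against 158 and 169.7 with control siRNA in KO-labelled cells, and 12.3, 13.2 and 12.01 with SET siRNA against 121, 125 and 126 with control siRNA in WT-labelled cells. CDKN1A, the p53 target that encodes p21, was 19.4 and 19.3 FPKM in KO-labelled against 741, 721 and 699 FPKM in WT-labelled cells with SET siRNA, and 6.84 and 6.51 in KO-labelled and 163, 169.8 and 153 in WT-labelled cells with control siRNA. Of 7 mesenchymal markers 6 reached FPKM 1, with vimentin highest and COL1A2 between 0.0537 and 0.0925 FPKM in KO-labelled and 0.0473 and 0.647 in WT-labelled cells. Of 6 epithelial markers 3 reached FPKM 1, with a sum of 11.2 to 13.3 FPKM in KO-labelled and 17.4 to 19.98 in WT-labelled cells. None of 6 blood markers or 5 endothelial markers reached FPKM 1, and HBB was listed at 0. The part of the epithelial difference in the results below was not tested.

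Members of the block were lower in KO-labelled cells by a median log2 ratio of mean FPKM of -0.43 with SET siRNA, a ratio of 0.745, and of -0.52 with control siRNA, a ratio of 0.697. With SET siRNA 167 members lay below a ratio of 1 and 11 above it, and with control siRNA 172 lay below and 6 above. In 163 members the ratio was below 1 under both siRNAs. The spread was wide, with 10th and 90th percentiles of -0.82 and -0.08 on the log2 scale with SET siRNA and -0.94 and -0.09 with control siRNA. A log2 ratio of -1 or less was seen in 9 of 178 members with SET siRNA and 13 with control siRNA. Among all tested genes it was seen in 754 of 14811 with SET siRNA and 650 of 14801 with control siRNA. The 9 include SNORA46 and the 13 include SNORA50, whose KO-labelled mean was 0 there. Nothing particular to the block is read from these counts. The other 307 genes of chromosome 16 with the same mean FPKM had medians of 0.01 with SET siRNA and -0.11 with control siRNA, and the genes of other chromosomes had 0.02 with SET siRNA and 0.04 with control siRNA. On those other chromosomes 47.4% of 9981 genes lay below 0 with SET siRNA and 45.2% of 9967 with control siRNA. In bulk RNA, a lower level in every cell and fewer cells that carry the transcript cannot be told apart.

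Each library showed the shift separately. Relative to the mean of the WT-labelled libraries with control siRNA, the median log2 level of the members was -0.38 and -0.43 in the KO-labelled libraries with SET siRNA and -0.48 and -0.57 in those with control siRNA. In the WT-labelled libraries it was 0.01, -0.02 and 0.03 with SET siRNA and 0.02, -0.00 and -0.02 with control siRNA. No KO-labelled library reached the WT-labelled range. Member FPKM summed to 4469 and 4429 in KO-labelled cells against 5858, 5815 and 5989 in WT-labelled cells with SET siRNA, and to 4207 and 4006 in KO-labelled cells against 5791, 5705 and 5728 in WT-labelled cells with control siRNA. The block held 0.796 to 0.851% of all FPKM in KO-labelled libraries and 1.10 to 1.13% in WT-labelled libraries. Every KO-labelled library lay below every WT-labelled library in 148 members with SET siRNA and 152 with control siRNA, where 35.4% and 28.8% of all tested genes did so, and 138 members did so under both siRNAs, against 19.8% of all tested genes. Since these contrasts chose the block, nothing is read from those counts. The opposite order, every KO-labelled library above, held for 8 members with SET siRNA and 3 with control siRNA, against 34.7% and 34.3% of all tested genes.

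**Figure D1:**
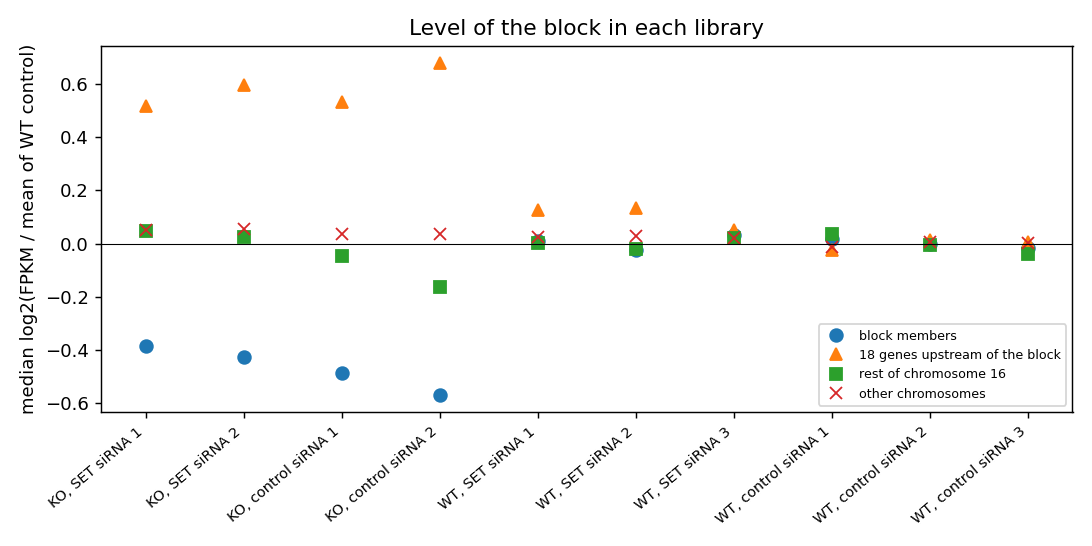
Median log2 FPKM relative to the mean of the WT-labelled libraries with control siRNA (y axis), for each of the 10 libraries (x axis) and 4 sets of genes with mean FPKM of at least 5. The members of the block sit between -0.57 and -0.38 in the 4 KO-labelled libraries and between -0.02 and 0.03 in the 6 WT-labelled libraries, while the 18 genes from SHCBP1 to SALL1, which lie before the block, sit between 0.52 and 0.68 in the KO-labelled libraries.

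One library differed from the others in base composition. Among genes of other chromosomes, divided into 3 classes of G and C content, the median level of the richest class minus that of the poorest was -0.56 log2 units in KO control siRNA library 2 and -0.19 in library 1 of that group. It was -0.13 and -0.22 in the KO-labelled libraries with SET siRNA, -0.18, -0.24 and -0.10 in WT-labelled libraries with SET siRNA, and 0.10, -0.03 and -0.07 in those with control siRNA. Without KO control siRNA library 2 the members' median ratio with control siRNA was -0.48, and without KO control siRNA library 1 it was -0.57.

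The ratio moved with base composition under control siRNA, but the distance to other genes of like composition stayed about the same. Transcript G and C content, taken from GENCODE release 29, was known for 170 members. In 3 classes of about equal size, from 37.4 to 48.6%, to 56.5% and to 67.6%, the members' median log2 ratio with SET siRNA was -0.37, -0.46 and -0.41. Genes of other chromosomes in the same ranges had 0.03, 0.01 and 0.02, which gives differences of -0.40, -0.46 and -0.43. With control siRNA the members had -0.37, -0.52 and -0.71 and the other genes 0.16, -0.06 and -0.19, which gives differences of -0.53, -0.46 and -0.52. The level of expression made little difference with SET siRNA, where 3 classes of rising mean FPKM had median ratios of -0.50, -0.45 and -0.37. With control siRNA they had -0.48, -0.64 and -0.42.

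**Figure D2:**
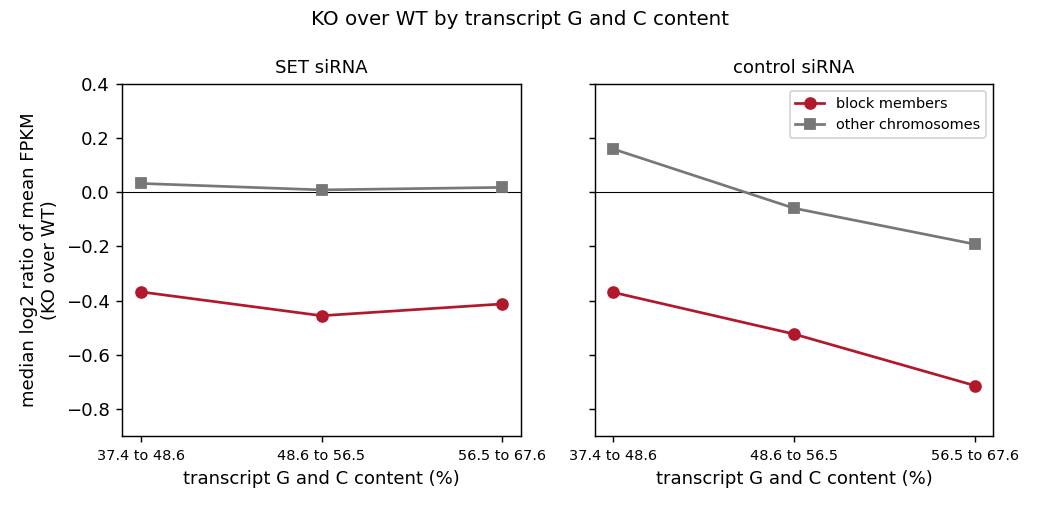
Median log2 ratio of mean FPKM, KO-labelled over WT-labelled (y axis), for members of the block and genes of other chromosomes in 3 ranges of transcript G and C content in percent (x axis), with SET siRNA on the left and control siRNA on the right. In each range the members lie 0.40 to 0.53 log2 units below the other genes.

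Along the block the ratio was lowest in its first 15 Mb. In the first bin, which starts at the block's edge and ends at 60 Mb, the 30 members had a median log2 ratio of -0.54 with SET siRNA and -0.62 with control siRNA. Between 65 and 70 Mb the 54 members had -0.51 with SET siRNA, where 53 lay below 0, and -0.69 with control siRNA, where 54 did. The next bins were closer to WT-labelled cells, with medians under SET siRNA and then control siRNA of -0.37 and -0.38 for 27 members between 70 and 75 Mb, -0.36 and -0.22 for 13 members to 80 Mb, -0.33 and -0.24 for 20 members to 85 Mb, and -0.35 and -0.43 for 34 members to the end. After each gene was set against genes of like base composition on the log2(FPKM + 1) scale, the 6 bins had -0.51, -0.48, -0.35, -0.34, -0.32 and -0.33 with SET siRNA and -0.58, -0.60, -0.42, -0.33, -0.25 and -0.28 with control siRNA. The order of a lower first pair of bins and higher later bins was thus seen under both siRNAs. Between positions 58768246 and 66541906 lies a stretch of 7774 kb with no member.

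Medians over 15 neighbouring genes showed no interruption. All 173 windows in which members made up at least 80% of the genes lay below 0 under both siRNAs. With SET siRNA they reached from -0.71 for the window from NDRG4 to FAM96B to -0.08 for the window from COTL1 to JPH3. With control siRNA the lowest was -0.88 for the window from ATP6V0D1 to SLC12A4 (chromosome 16, 67471917 to 68002597). Of 9667 such windows on other chromosomes, 1.49% with SET siRNA and 1.27% with control siRNA had a median at or below that of all members. The lowest elsewhere were -0.71 on chromosome 12, from CCND2 to NOP2, with SET siRNA and -0.72 on chromosome 7, from LRCH4 to PLOD3, with control siRNA. Neighbouring windows share genes and are not independent of each other.

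The change of direction before the block was sharp. All 18 genes with mean FPKM of at least 5 from SHCBP1 to SALL1 (chromosome 16, 46614466 to 51185183) had a ratio above 1 with control siRNA, and 17 of them with SET siRNA. Their median log2 ratio was 0.46 with SET siRNA and 0.61 with control siRNA. On the log2(FPKM + 1) scale it was 0.43 with SET siRNA and 0.59 with control siRNA. After correction for base composition on that scale it was 0.41 and 0.43. VPS35, a subunit of the retromer that recycles cargo from endosomes, was 84.4 and 88.8 FPKM in KO-labelled against 64.4, 65.2 and 63.3 in WT-labelled cells with SET siRNA, and 83.7 and 92.7 in KO-labelled and 56.5, 59.4 and 60.2 in WT-labelled cells with control siRNA. SALL1, a zinc finger transcription factor and the last of the 18, was 15.3 and 14.7 FPKM in KO-labelled and 7.94, 7.15 and 7.54 in WT-labelled cells with SET siRNA, and 13.8 and 13.5 in KO-labelled and 8.16, 8.56 and 8.096 in WT-labelled cells with control siRNA. In both genes the lines did not overlap under either siRNA. The next gene, LOC643714 (chromosome 16, 52585999 to 52640887), was 23.6 and 28.7 FPKM in KO-labelled and 0.0795, 0.0745 and 0 in WT-labelled cells with SET siRNA. With control siRNA it was 26.1 and 25.2 in KO-labelled cells and listed at 0 in all 3 WT-labelled libraries. These 3 genes were chosen after their values were seen, and no fold is given for LOC643714. From there to the block, CHD9, RBL2, AKTIP, RPGRIP1L and FTO had log2 ratios from -0.78 to 0.01 with SET siRNA and from -0.34 to -0.05 with control siRNA. The 276 genes before 40 Mb had medians of 0.00 with SET siRNA and -0.12 with control siRNA, the second being -0.02 after correction for base composition.

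**Figure D3:**
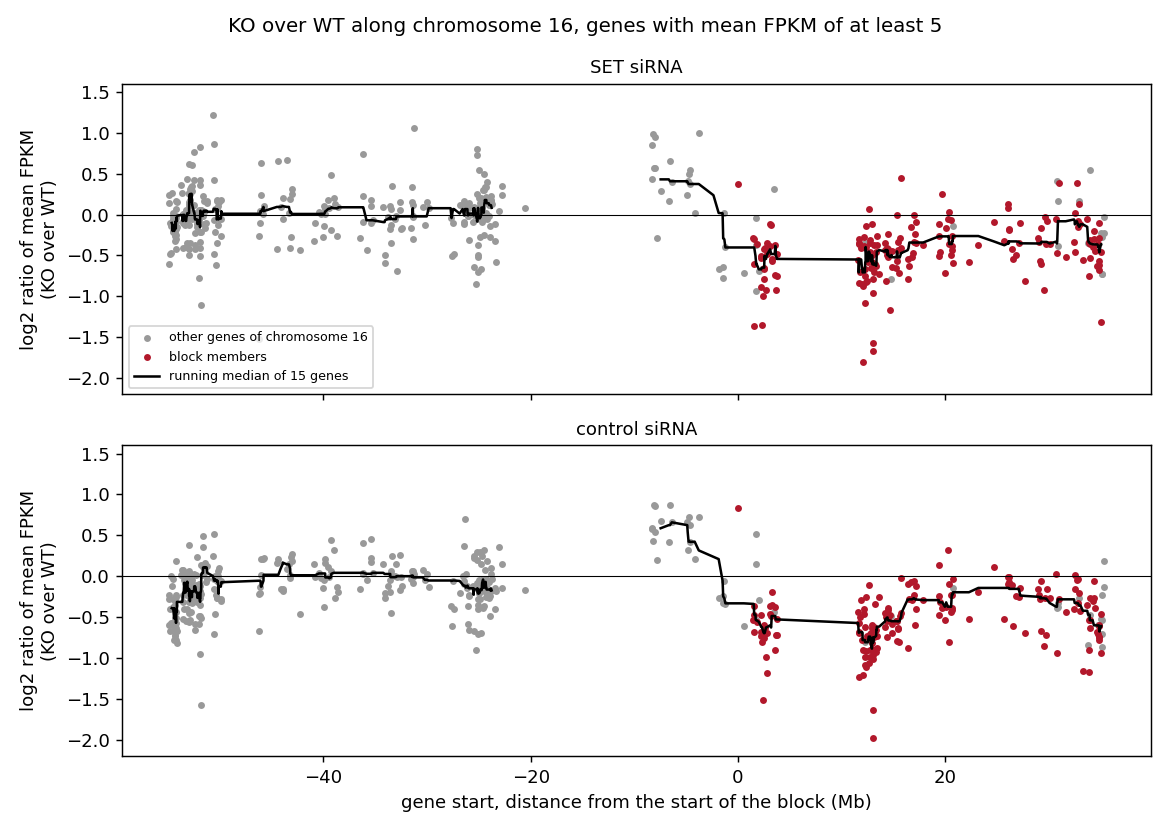
Log2 ratio of mean FPKM, KO-labelled over WT-labelled (y axis), for genes of chromosome 16 with mean FPKM of at least 5, by the distance of the gene start from the start of the block in Mb (x axis), with SET siRNA above and control siRNA below. The black line is the median of 15 neighbouring genes. In the stretch from SHCBP1 to SALL1 the line starts only at PHKB, because the median needs neighbours on both sides. From PHKB to SALL1 it lies above 0, and throughout the block it lies below 0. Genes with no defined ratio, and LOC643714, whose ratio lies beyond the axis, are not drawn.

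At its inner edge the block opens with CRNDE, a long noncoding RNA and the member with the highest ratio under control siRNA. CRNDE (chromosome 16, 54952775 to 54963079) was 14.6 and 13.8 FPKM in KO-labelled against 11.2, 10.3 and 11.4 in WT-labelled cells with SET siRNA, and 13.9 and 18.6 in KO-labelled and 9.17, 10.5 and 7.61 in WT-labelled cells with control siRNA, so it was higher in every KO-labelled library. Near the same edge NUDT21, a subunit of the mRNA 3' end cleavage factor, had a log2 ratio of -0.30 with SET siRNA and -0.37 with control siRNA. The nearest genes outside, AKTIP, RPGRIP1L and FTO, had -0.64, 0.01 and -0.40 with SET siRNA and -0.25, -0.05 and -0.34 with control siRNA. At the outer edge, near the chromosome end, the last members were FANCA, TCF25 and MC1R, and they had -0.10, -0.46 and -1.32 with SET siRNA and -0.60, -0.46 and -0.94 with control siRNA. Beyond it, TUBB3, a neuronal tubulin, had -0.22 with SET siRNA and -0.53 with control siRNA, DEF8 had -0.73 with SET siRNA and -0.87 with control siRNA, and CENPBD1 had -0.24 with SET siRNA and -0.22 with control siRNA. Of the 7 genes past the edge 7 lay below 0 with SET siRNA and 6 with control siRNA.

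Genes on either side of the FPKM threshold had ratios below 1. The members with the lowest mean FPKM were DDX28 at 5.07, LOC100506251 at 5.08 and ZFP90 at 5.26, with log2 ratios of -0.38, -0.44 and -0.73 with SET siRNA and -0.62, -0.38 and -0.26 with control siRNA. Just below it, PDXDC2P at 4.72, SETD6 at 4.41 and MLKL at 4.32 had -0.59, -0.83 and -0.90 with SET siRNA and -0.55, -1.15 and -1.06 with control siRNA. PDXDC2P is a pseudogene copy of PDXDC1, and its value is uncertain. In all 202 entries lay below the threshold, and 32 of the 397 were listed at 0 in every library. All 178 members passed the filter for testing, none had a failed status, 65 overlap another entry, and 43 overlap one with a mean FPKM of at least 5. Whether the counting used strand was not stated, so reads of overlapping genes cannot be told apart. The 43 include CNOT1, COQ9, POLR2C, NIP7, TXNL4B, PSMD7, CENPN, JPH3, PIEZO1 and FANCA, whose values given below are uncertain for this reason.

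The 17 symbols left out by name also lie inside the block. Metallothionein MT2A, which binds zinc and cadmium, was 1013 and 997 FPKM in KO-labelled against 2017, 1836 and 1901 in WT-labelled cells with SET siRNA, and 1010 and 862 in KO-labelled and 1482, 1281 and 1294 in WT-labelled cells with control siRNA. With SET siRNA the log2 ratio was above 0 for GINS3, GINS2, COX4NB, SLC7A5 and CDT1, with CDT1, a replication licensing factor, at 0.54 and GINS2 at 0.41. With control siRNA it was below 0 for 15 of the 17, from -0.84 for MVD to -0.14 for KARS, and was 0.15 for MT1E and 0.52 for MT1X.

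Promoters of the members were rich in G and C, as were those of other expressed genes. RefSeq windows from 250 bases before to 50 after the gene start, on GRCh38.p14, were found for 147 members. Their median G and C content was 68.3% with 30 CG pairs, against 65.7% and 27 over 7265 windows of genes with mean FPKM of at least 5. At least 10 CG pairs stood in 131 member windows, or 89.1%, and in 91.6% of the windows of expressed genes. The consensus half-site of p53, searched on both strands, stood in 9 member windows, or 6.12%, in 5.08% of the windows of expressed genes and in 6.54% of all 27305. A match is a run of letters and not a bound site. The 4 windows below belong to members whose response to SET siRNA, given further on, differed between the lines. They show 2 members with a more positive response in WT-labelled cells (CES2 and TERF2IP) and 2 with a less positive one (CMTM1 and RFWD3), and were chosen after the values were seen. Each reads 5' to 3' on the gene's strand, with CG pairs in capitals. They lie at chr16:66934221-66934520 on the plus strand (CES2), chr16:75647523-75647822 on the plus strand (TERF2IP), chr16:66566189-66566488 on the plus strand (CMTM1) and chr16:74666828-74667127 on the minus strand (RFWD3).
CES2: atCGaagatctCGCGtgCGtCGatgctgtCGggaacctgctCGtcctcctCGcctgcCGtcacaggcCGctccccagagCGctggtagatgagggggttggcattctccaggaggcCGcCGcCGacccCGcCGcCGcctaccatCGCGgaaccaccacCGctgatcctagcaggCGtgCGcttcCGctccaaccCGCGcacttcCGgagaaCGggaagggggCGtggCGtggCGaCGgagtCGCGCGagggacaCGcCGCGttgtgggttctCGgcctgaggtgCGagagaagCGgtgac
TERF2IP: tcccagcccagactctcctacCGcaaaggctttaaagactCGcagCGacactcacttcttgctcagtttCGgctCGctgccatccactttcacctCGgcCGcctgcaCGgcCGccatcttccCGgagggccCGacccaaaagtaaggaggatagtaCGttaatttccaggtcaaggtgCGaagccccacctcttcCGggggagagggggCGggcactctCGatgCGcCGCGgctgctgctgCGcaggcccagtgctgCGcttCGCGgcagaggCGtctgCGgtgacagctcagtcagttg
CMTM1: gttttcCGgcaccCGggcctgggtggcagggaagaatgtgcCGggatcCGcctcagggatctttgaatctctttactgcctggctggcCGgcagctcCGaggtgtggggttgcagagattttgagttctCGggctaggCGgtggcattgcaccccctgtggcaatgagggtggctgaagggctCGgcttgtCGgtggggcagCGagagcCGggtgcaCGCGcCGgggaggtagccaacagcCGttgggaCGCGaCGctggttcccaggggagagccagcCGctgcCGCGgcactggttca
RFWD3: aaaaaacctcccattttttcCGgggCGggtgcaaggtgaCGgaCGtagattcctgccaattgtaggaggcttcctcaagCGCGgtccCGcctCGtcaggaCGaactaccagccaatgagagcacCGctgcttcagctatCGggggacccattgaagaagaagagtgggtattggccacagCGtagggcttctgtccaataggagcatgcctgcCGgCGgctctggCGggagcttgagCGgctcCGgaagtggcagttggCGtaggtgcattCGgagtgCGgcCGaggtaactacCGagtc
The windows of CES2, TERF2IP, CMTM1 and RFWD3 hold 40, 25, 22 and 22 CG pairs. Of these 4 the window of RFWD3 alone holds a p53 half-site, GAGCATGCCT, which starts at base 202 of the window and is printed there in lower case.

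All 20 members listed under metabolism and transporters lay below 0 under both siRNAs, where 163 of all 178 members did. Among the 20 were LCAT and SLC12A4, the members with the lowest defined ratios under control siRNA. The list also counts SLC7A6OS, whose symbol marks the strand opposite SLC7A6 and does not make it a transporter. The median log2 ratio of the list was -0.52 with SET siRNA and -0.63 with control siRNA, against -0.43 and -0.52 for all members. LCAT (chromosome 16, 67973787 to 67978015), the plasma enzyme that esterifies cholesterol, was 7.99 and 7.44 FPKM in KO-labelled against 24.8, 24.6 and 23.97 in WT-labelled cells with SET siRNA. With control siRNA it was 3.71 and 3.69 in KO-labelled against 16.1, 14.7 and 12.9 in WT-labelled cells, a log2 ratio of -1.98. SLC12A4 (chromosome 16, 67977377 to 68002597), a potassium chloride cotransporter whose listed position overlaps LCAT, was 13.2 and 12 FPKM in KO-labelled and 37.99, 35.7 and 38.6 in WT-labelled cells with SET siRNA, and 8.22 and 6.92 in KO-labelled and 25.6, 22.96 and 22 in WT-labelled cells with control siRNA. The values of this overlapping pair are uncertain, and in both the KO-labelled libraries lay far below the WT-labelled ones.

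CES2 (chromosome 16, 66968347 to 66978999), a carboxylesterase that activates prodrugs, was 6.83 and 6.78 FPKM in KO-labelled against 24.3, 24.2 and 22.8 in WT-labelled cells with SET siRNA, and 6.76 and 5.67 in KO-labelled and 15.6, 13.8 and 13.6 in WT-labelled cells with control siRNA. The most abundant genes of the group were closer to the WT level than LCAT, SLC12A4 and CES2. APRT, an adenine salvage enzyme, was 142 and 143 FPKM in KO-labelled and 206, 198 and 214 in WT-labelled cells with SET siRNA, and 116 and 99.1 in KO-labelled and 177, 172 and 154 in WT-labelled cells with control siRNA. GOT2, the mitochondrial aspartate aminotransferase, was 79.8 and 78.99 FPKM in KO-labelled and 112, 112 and 109 in WT-labelled cells with SET siRNA, and 76.8 and 77.3 in KO-labelled and 114, 109 and 110.1 in WT-labelled cells with control siRNA. COQ9, which takes part in coenzyme Q synthesis, was 20.98 and 21.8 FPKM in KO-labelled and 35.5, 37.3 and 37.9 in WT-labelled cells with SET siRNA, and 31.7 and 27.7 in KO-labelled and 49.1, 41.6 and 45.9 in WT-labelled cells with control siRNA. In these 3 genes no KO-labelled library reached a WT-labelled one.

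The listed genes of RNA processing and translation all lay below 0 as well, 18 of 18 under both siRNAs, where 163 of all 178 members did. Their medians were -0.38 with SET siRNA and -0.54 with control siRNA. NIP7, a factor for assembly of the large ribosomal subunit and 1 of the 2 members nearest the median ratio with control siRNA, was 19.1 and 18.6 FPKM in KO-labelled against 24.9, 25.5 and 25.1 in WT-labelled cells with SET siRNA, and 17.8 and 16.5 in KO-labelled and 24.7, 24.7 and 24.6 in WT-labelled cells with control siRNA. CIRH1A, a part of the processome of the small subunit, was 40.9 and 44.2 FPKM in KO-labelled and 53.6, 55.04 and 53.6 in WT-labelled cells with SET siRNA, and 37.5 and 37.8 in KO-labelled and 56.95, 55.4 and 60.6 in WT-labelled cells with control siRNA. CNOT1, the scaffold of the CCR4-NOT complex, was 42.4 and 42.7 FPKM in KO-labelled and 55.2, 55.3 and 55.4 in WT-labelled cells with SET siRNA, and 36.4 and 37.4 in KO-labelled and 47.1, 48.3 and 48.3 in WT-labelled cells with control siRNA. C16orf57, an exonuclease that trims the U6 spliceosomal RNA, was 40.5 and 42.2 FPKM in KO-labelled and 51.8, 55.2 and 54.8 in WT-labelled cells with SET siRNA, and 41.04 and 36.3 in KO-labelled and 53.6, 53.3 and 52.1 in WT-labelled cells with control siRNA. The groups did not overlap in these 4 genes.

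Ubiquitin and proteasome genes had medians of -0.31 with SET siRNA and -0.39 with control siRNA over 12 members. All members had -0.43 and -0.52, and the chromatin and transcription list below was nearer to 0 than either. With SET siRNA 11 of the 12 ubiquitin and proteasome genes lay below 0, with RFWD3 above it, and with control siRNA all 12 did. PSMD7, a subunit of the proteasome lid and the most abundant of them, was 93.5 and 95.8 FPKM in KO-labelled against 100.4, 104 and 104 in WT-labelled cells with SET siRNA, and 99.7 and 97.3 in KO-labelled and 113, 116 and 119.9 in WT-labelled cells with control siRNA. NAE1, a subunit of the enzyme that activates NEDD8, was 57.7 and 58.8 FPKM in KO-labelled and 73.8, 80.9 and 76.9 in WT-labelled cells with SET siRNA, and 52.98 and 62.5 in KO-labelled and 65.1, 74.3 and 72.2 in WT-labelled cells with control siRNA. USP10, a deubiquitinase, was 38.1 and 39.02 FPKM in KO-labelled and 39.98, 41.3 and 40.95 in WT-labelled cells with SET siRNA, and 35.5 and 36.4 in KO-labelled and 40.3, 39.9 and 39.6 in WT-labelled cells with control siRNA. For USP10 the distance between the lines was under 5 FPKM with either siRNA, although the libraries did not overlap.

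Vesicle, lysosome and autophagy genes lay below 0 under both siRNAs in 11 of 11 members, where 163 of all 178 members did. Their medians were -0.46 with SET siRNA and -0.48 with control siRNA. The ubiquitin-like proteins of autophagosomes are encoded by GABARAPL2 and MAP1LC3B. GABARAPL2 was 109 and 102 FPKM in KO-labelled against 143, 142 and 143 in WT-labelled cells with SET siRNA, and 89.9 and 98.9 in KO-labelled and 113, 111 and 106 in WT-labelled cells with control siRNA. MAP1LC3B was 60.5 and 60.8 FPKM in KO-labelled and 82.1, 86.1 and 81.6 in WT-labelled cells with SET siRNA, and 46.6 and 54.4 in KO-labelled and 54.4, 54.6 and 59.8 in WT-labelled cells with control siRNA. In MAP1LC3B the log2 ratio was -0.46 with SET siRNA and -0.16 with control siRNA, and the test of this difference gave adjusted p = 0.0616 in limma. CHMP1A, an ESCRT-III protein of membrane scission, was 51.1 and 51.2 FPKM in KO-labelled and 65.96, 62.4 and 69.3 in WT-labelled cells with SET siRNA, and 48.2 and 41.9 in KO-labelled and 77.4, 72.9 and 70.1 in WT-labelled cells with control siRNA. The difference of its siRNA responses, WT-labelled minus KO-labelled, was -0.34 (adjusted p = 0.0425 in limma). That call held only without KO control siRNA library 1, WT control siRNA library 3 or WT SET siRNA library 3 when 1 library was left out (adjusted p = 0.0735 to 0.125 in the other 7 cases in limma), and the difference was -0.14 after centring on genes of like base composition (adjusted p = 0.0518 in limma).

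Chromatin and transcription genes held more members above 0 than the other lists, with 20 of 24 below 0 with SET siRNA and 21 with control siRNA and medians of -0.27 and -0.31. POLR2C, a subunit of RNA polymerase II, was 55.2 and 57.1 FPKM in KO-labelled against 73.8, 77.2 and 75.5 in WT-labelled cells with SET siRNA, and 46.8 and 46.3 in KO-labelled and 70.3, 69.96 and 71.2 in WT-labelled cells with control siRNA. CENPN, a kinetochore protein, was 62.4 and 64.9 FPKM in KO-labelled and 59.04, 61.5 and 60.7 in WT-labelled cells with SET siRNA, and 48.2 and 54.5 in KO-labelled and 49.7, 51.2 and 53.9 in WT-labelled cells with control siRNA, so KO-labelled cells were higher with SET siRNA and overlapped WT-labelled cells with control siRNA. TCF25 was 44.01 and 44.1 FPKM in KO-labelled and 63.1, 57.7 and 61.3 in WT-labelled cells with SET siRNA, and 52.3 and 45.4 in KO-labelled and 71.4, 65.3 and 64.7 in WT-labelled cells with control siRNA. The zinc finger gene ZFP1 was 6.98 and 6.68 FPKM in KO-labelled and 7.26, 7.899 and 6.1 in WT-labelled cells with SET siRNA, where the lines overlapped, and 12.8 and 13.9 in KO-labelled and 9.96, 11.5 and 10.7 in WT-labelled cells with control siRNA, where KO-labelled cells were higher. MAF, a leucine zipper transcription factor, was 6.304 and 6.21 FPKM in KO-labelled and 8.18, 5.33 and 6.47 in WT-labelled cells with SET siRNA, and 8.86 and 7.04 in KO-labelled and 8.96, 5.92 and 7.18 in WT-labelled cells with control siRNA, with overlap in both.

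**Figure D4:**
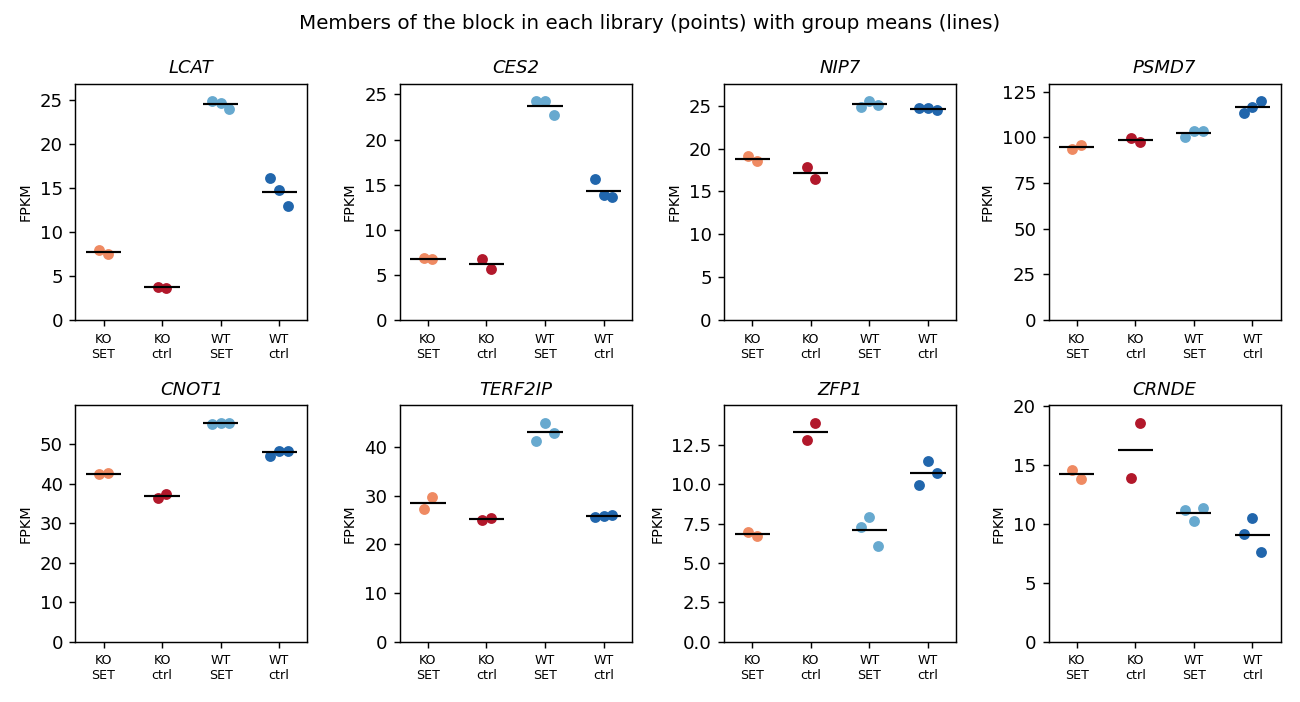
FPKM (y axes, each from 0) of 8 members in each library (points) with the group mean (line), for KO-labelled and WT-labelled cells with SET siRNA or control siRNA (ctrl). LCAT, CES2, NIP7, PSMD7 and CNOT1 are lower in KO-labelled cells under both siRNAs, TERF2IP differs between the lines mainly with SET siRNA, and CRNDE is higher in KO-labelled cells.

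Of 7 DNA repair and telomere genes, 6 lay below 0 with SET siRNA and 7 with control siRNA, with medians of -0.35 and -0.42. CHTF8, part of an alternative clamp loader, was 38.7 and 38.4 FPKM in KO-labelled against 51.5, 51.8 and 52.96 in WT-labelled cells with SET siRNA, and 37.6 and 37.4 in KO-labelled and 51.8, 52.3 and 49.7 in WT-labelled cells with control siRNA. FANCA, a core protein of the Fanconi anaemia pathway, was 23.4 and 21.5 FPKM in KO-labelled and 23.01, 24.3 and 24.96 in WT-labelled cells with SET siRNA, and 20.8 and 19.2 in KO-labelled and 31.5, 31.4 and 28.2 in WT-labelled cells with control siRNA. The FANCA libraries of the lines overlapped with SET siRNA and did not overlap with control siRNA. The 3 adhesion genes had medians of -0.81 with SET siRNA and -0.80 with control siRNA. GPR56, an adhesion receptor, was 22.5 and 22.4 FPKM in KO-labelled and 44.3, 39.5 and 43.8 in WT-labelled cells with SET siRNA, and 23.1 and 20.7 in KO-labelled and 44.4, 44.2 and 42.1 in WT-labelled cells with control siRNA. BCAR1, a docking protein of focal adhesions, had log2 ratios of -0.36 with SET siRNA and -0.80 with control siRNA, and the cadherin CDH13 had -0.81 with SET siRNA and -0.69 with control siRNA.

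Among 4 cytoskeleton and motor genes the medians were -0.42 with SET siRNA and -0.59 with control siRNA. COTL1, an actin-binding protein and the most abundant member of the block, was 262 and 281 FPKM in KO-labelled against 267, 277 and 284 in WT-labelled cells with SET siRNA, where the lines overlapped. With control siRNA COTL1 was 239 and 226 in KO-labelled against 291, 278 and 272 in WT-labelled cells. KIFC3, a kinesin that moves to the minus end of microtubules, was 44.2 and 41.5 FPKM in KO-labelled and 59.1, 56.02 and 64.5 in WT-labelled cells with SET siRNA, and 28.6 and 22.6 in KO-labelled and 63.1, 56.1 and 55.3 in WT-labelled cells with control siRNA. The dynein subunit DYNC1LI2 had log2 ratios of -0.71 with SET siRNA and -0.49 with control siRNA. In all, 98 members stood in one of the 8 role lists and 80 in none. The lists are not complete, since NUDT21, MON1B and CDYL2 stood in none, and their counts are not those of whole classes of genes.

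Outside these lists, CX3CL1, the chemokine fractalkine, was 5.75 and 5.47 FPKM in KO-labelled against 11.8, 10.2 and 11.6 in WT-labelled cells with SET siRNA, and 4.28 and 3.88 in KO-labelled and 13.02, 11.1 and 10.9 in WT-labelled cells with control siRNA. The mechanically gated channel PIEZO1 was 27.1 and 25.3 FPKM in KO-labelled and 45.3, 41.6 and 45.4 in WT-labelled cells with SET siRNA, and 22.4 and 18.4 in KO-labelled and 51.02, 44.8 and 42.2 in WT-labelled cells with control siRNA. MC1R, the melanocortin receptor, was 5.31 and 4.64 FPKM in KO-labelled and 12.8, 12.3 and 12.1 in WT-labelled cells with SET siRNA, and 5.62 and 4.39 in KO-labelled and 10.3, 9.14 and 9.34 in WT-labelled cells with control siRNA. These 3 were lower in every KO-labelled library. Near the median ratio with NIP7 stood MON1B, a vesicle fusion factor, at -0.58 with SET siRNA and -0.52 with control siRNA, and the chromodomain gene CDYL2 at -0.33 with SET siRNA and -0.52 with control siRNA. KIAA0182 and LOC100506201 had log2 ratios of -0.06 and -0.27 with SET siRNA, and of 0.03 and 0.14, above 0, with control siRNA. LOC100506201 overlaps PSMD7 and is uncertain.

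The small nucleolar RNAs SNORA46 and SNORA50, which guide pseudouridylation and lie within CNOT1, were listed at 0 in some libraries. SNORA46 was 0 and 0 FPKM in KO-labelled and 0, 27.8 and 27.8 in WT-labelled cells with SET siRNA, and 26.8 and 0 in KO-labelled and 0, 0 and 66.05 in WT-labelled cells with control siRNA. SNORA50 was 26.8 and 20.5 FPKM in KO-labelled and 56.01, 26.2 and 52.47 in WT-labelled cells with SET siRNA, and 0 and 0 in KO-labelled and 0, 28.5 and 0 in WT-labelled cells with control siRNA. Their status in the files was OK in every library. No fold is given for either, since single libraries of the same group stood at 0 and others of it did not, while CNOT1 itself was well above 0 in every library.

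The response of the block to SET siRNA asks whether its genes also move when SET is reduced, a contrast within each line. The block was not picked on this contrast, but on comparisons of the lines that use the same libraries. A low value in a KO-labelled library with control siRNA enters both, and so the counts below are not fully independent of the choice of members. In WT-labelled cells 53 of 178 members rose and 45 fell with SET siRNA in limma, against 30.8% and 24% of all tested genes. These shares, 29.8% and 25.3% of the members, lie near the background. After median-of-ratios scaling the split was 42 higher and 59 lower. The median log2 change was 0.01 over the members and 0.04 over all tested genes. In KO-labelled cells 54 members rose and 23 fell, or 30.3% and 12.9%, against 19.8% and 17.9% of all tested genes, with medians of 0.10 over the members and 0.02 over all. The lower count and the median changed in an alternative run, and the reason was not tested. After centring on genes of like base composition, for the 170 members where it is known, 55 were higher and 39 lower, or 32.4% and 22.9%, against 23.1% and 24.5% of all genes so centred, and the median over the members was 0.02. With only the KO-labelled libraries in the fit 27 were higher and 11 lower, and without KO control siRNA library 2 the counts were 34 and 21. Without KO SET siRNA library 1 or 2, 35 were higher in each case, and without library 1 14 were lower.

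OSGIN1, an oxidative stress gene that restrains growth, rose the most among members that had no 0. It was 63.1 and 56.99 FPKM with SET siRNA against 33.7 and 27.2 with control siRNA in KO-labelled cells, and 74.6, 68.4 and 84.3 with SET siRNA against 38.9, 33.99 and 34.5 with control siRNA in WT-labelled cells. The log2 change was 0.96 ± 0.121 (SE; adjusted p = 0.000373 in limma) in KO-labelled and 1.06 ± 0.0985 (adjusted p = 2.70e-05) in WT-labelled cells, with no overlap of siRNA groups in either line. LCAT rose as well, with log2 changes of 0.89 ± 0.0861 (adjusted p = 8.95e-05 in limma) in KO-labelled and 0.71 ± 0.0703 (adjusted p = 3.71e-05) in WT-labelled cells. TXNL4B, a relative of a spliceosome protein, was 21.8 and 22.9 FPKM with SET siRNA against 12.5 and 13.9 with control siRNA in KO-labelled cells and 22.1, 24.5 and 24.9 with SET siRNA against 13.9, 15.6 and 13.6 with control siRNA in WT-labelled cells. Its log2 change was 0.72 in KO-labelled (adjusted p = 0.000247 in limma) and 0.69 in WT-labelled cells (adjusted p = 3.71e-05). SNORA50 was also called higher in both lines in limma, with adjusted p = 0.0244 in KO-labelled and 0.0155 in WT-labelled cells. That call rests on single libraries. In WT-labelled cells it was lost without control siRNA library 1 or 3 (adjusted p = 0.0566 and 0.0543 in limma). In KO-labelled cells it was lost without any 1 of the 4 libraries (adjusted p = 0.0691 to 0.103 in limma).

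C16orf74 fell the most of the called members in both lines. It was 2.62 and 3.28 FPKM with SET siRNA against 6.94 and 6.12 with control siRNA in KO-labelled cells, and 3.84, 4.03 and 4.37 with SET siRNA against 14.4, 11.8 and 11.3 with control siRNA in WT-labelled cells. The log2 change was -0.93 ± 0.123 (SE; adjusted p = 0.000488 in limma) in KO-labelled and -1.41 ± 0.1002 (adjusted p = 5.58e-06) in WT-labelled cells. The half-width of the authors' confidence interval for C16orf74 was 25.7% of its FPKM in the median, above the members' 90th percentile of 12.9%. MMP15, a metalloproteinase of the cell membrane, was 3.65 and 3.71 FPKM with SET siRNA against 6.33 and 5.67 with control siRNA in KO-labelled and 3.82, 3.93 and 4.203 with SET siRNA against 7.59, 9.09 and 6.497 with control siRNA in WT-labelled cells, and fell in both (adjusted p = 0.00546 and 0.000143 in limma). The cadherin CDH13 was 10.2 and 10.6 FPKM with SET siRNA against 15.1 and 16.8 with control siRNA in KO-labelled and 17.8, 19.6 and 17.4 with SET siRNA against 24.03, 25.7 and 27.5 with control siRNA in WT-labelled cells, and fell in both (adjusted p = 0.000784 and 0.000308 in limma). ZFP1 fell by 0.87 in KO-labelled and 0.54 in WT-labelled cells on the log2 scale (adjusted p = 0.000304 and 0.000644 in limma). The calcium-store gene JPH3 fell by 0.29 in KO-labelled and 0.70 in WT-labelled cells (adjusted p = 0.0218 and 3.36e-05 in limma), and the sialyltransferase ST3GAL2 fell by 0.30 in KO-labelled and 0.60 in WT-labelled cells (adjusted p = 0.0158 and 7.01e-05 in limma). In KO-labelled cells the call of JPH3 was lost without KO control siRNA library 1 or KO SET siRNA library 2 (adjusted p = 0.108 and 0.126 in limma), and that of ST3GAL2 without KO control siRNA library 1 or either KO SET siRNA library (adjusted p = 0.063 to 0.0758 in limma).

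The role lists are read against all tested genes, of which 19.8% were called higher and 17.9% lower with SET siRNA in the KO-labelled line, against 30.8% higher and 24% lower in the WT-labelled line. Of the lists, metabolic genes and transporters had 10 members of 20 that rose and 2 that fell in KO-labelled cells, and 9 and 4 in WT-labelled cells. SLC7A6OS, not itself a transporter, is among the 10 that rose in KO-labelled cells (adjusted p = 0.00271 in limma). Of 18 RNA processing genes, 6 rose in KO-labelled cells, and 4 rose and 1 fell in WT-labelled cells. Vesicle and autophagy genes had 4 higher and 3 lower of 11 in KO-labelled cells and 6 and 3 in WT-labelled cells. MAP1LC3B rose in both lines, by 0.26 in KO-labelled and 0.56 in WT-labelled cells on the log2 scale (adjusted p = 0.0218 and 7.13e-05 in limma). Its call in KO-labelled cells was lost without KO control siRNA library 1 or either KO SET siRNA library (adjusted p = 0.0848 to 0.0976 in limma) and after centring on genes of like base composition (adjusted p = 0.0748 in limma). Chromatin and transcription genes had 9 higher and 4 lower of 24 in KO-labelled cells and 8 and 7 in WT-labelled cells. Of 12 ubiquitin genes 4 rose in KO-labelled cells, and 2 rose and 4 fell in WT-labelled cells, and of 7 repair and telomere genes 1 rose and 1 fell in KO-labelled and 1 rose and 3 fell in WT-labelled cells. Of the 3 adhesion genes 1 fell in KO-labelled and 2 in WT-labelled cells, and of 4 cytoskeleton genes 3 rose in KO-labelled cells. No list was tested as a set, and no list was tested for a difference between the lines.

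Whether the siRNA response differed between the lines was tested as the response in WT-labelled minus that in KO-labelled cells. Since the block was picked on differences between the lines under each siRNA, and the interaction is the difference of those, its counts are not fully independent of the choice of members. In limma 9 members had a positive and 24 a negative difference, or 5.06% and 13.5%, against 10.5% and 8.6% of all tested genes. The median over the members was -0.06, against 0.03 over all tested genes, and -0.01 over the members after centring on genes of like base composition. With that centring 20 of 170 members were positive and 34 negative, or 11.8% and 20%, against 12.7% and 13.1% of all genes so centred. The count of negative differences rests on single libraries. It was 37 without KO control siRNA library 1 and 10 without library 2, 8 and 13 without KO SET siRNA library 1 and 2, 12 and 15 without WT control siRNA library 1 and 2, and 13 and 12 without WT SET siRNA library 1 and 2. Positive differences numbered 18 without KO control siRNA library 1.

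TERF2IP, which encodes the shelterin protein RAP1, rose in WT-labelled cells by 0.72 log2 units (adjusted p = 3.46e-06 in limma). In KO-labelled cells its change was 0.17 (adjusted p = 0.0472 in limma), a call that was lost without any 1 library other than KO SET siRNA library 1 (adjusted p = 0.0508 to 0.283 in limma). It was 27.2 and 29.8 FPKM with SET siRNA against 25.1 and 25.4 with control siRNA in KO-labelled cells, and 41.2, 44.99 and 43.02 with SET siRNA against 25.6, 25.8 and 26.1 with control siRNA in WT-labelled cells. The lines lay within 1 FPKM of each other with control siRNA and stood apart with SET siRNA, and the difference of responses was 0.55 ± 0.0738 log2 units (SE; adjusted p = 0.00202 in limma). CES2, whose promoter window holds the most CG pairs of the 4 printed above, had log2 changes of 0.12 in KO-labelled (adjusted p = 0.314 in limma) and 0.69 in WT-labelled cells (adjusted p = 4.53e-05), a difference of 0.57 ± 0.111 (adjusted p = 0.00964). BBS2, a part of the ciliary BBSome, was 5.84 and 6.49 FPKM with SET siRNA against 6.73 and 7.25 with control siRNA in KO-labelled and 16.3, 15.7 and 15.6 with SET siRNA against 10.9, 11.2 and 11.4 with control siRNA in WT-labelled cells. NFAT5, the transcription factor of osmotic stress, was 5.995 and 6.56 FPKM with SET siRNA against 7.63 and 8.65 with control siRNA in KO-labelled and 14.2, 14.7 and 13.6 with SET siRNA against 10.8, 11.9 and 11.1 with control siRNA in WT-labelled cells. It fell in KO-labelled and rose in WT-labelled cells (adjusted p = 0.00889 and 0.00265 in limma), and the fall was not called without KO control siRNA library 2 or KO SET siRNA library 1 (adjusted p = 0.0519 and 0.0701 in limma). The log2 change of BBS2 was -0.16 in the KO-labelled line (adjusted p = 0.0786 in limma) and 0.47 in the WT-labelled line, where it rose (adjusted p = 7.51e-05). The differences were 0.63 for BBS2 and 0.63 for NFAT5 (adjusted p = 0.00181 and 0.00373 in limma). ARL2BP, a binding partner of the GTPase ARL2, fell in both lines, by 0.72 in KO-labelled and 0.22 in WT-labelled cells, a difference of 0.50 ± 0.0759 (adjusted p = 0.00347 in limma).

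Negative differences were led by CMTM1, of the chemokine-like factor family. It was 6.37 and 6.78 FPKM with SET siRNA against 6.06 and 5.58 with control siRNA in KO-labelled cells, and 8.65, 8.78 and 7.86 with SET siRNA against 14.1, 16.2 and 10.8 with control siRNA in WT-labelled cells, so it fell in WT-labelled cells. The difference of -0.77 ± 0.187 (adjusted p = 0.0215 in limma) was lost without KO control siRNA library 2 or either KO SET siRNA library (adjusted p = 0.0651 to 0.0726 in limma), and CMTM1 overlaps the entry CKLF-CMTM1. The confidence interval of CMTM1 had a half-width of 27.9% of its FPKM in the median, above the members' 90th percentile of 12.9%. RFWD3, a ubiquitin ligase of replication stress, was 37.9 and 37.8 FPKM with SET siRNA against 32.4 and 34.6 with control siRNA in KO-labelled and 30.6, 33.1 and 31.9 with SET siRNA against 41.6, 42.7 and 46.9 with control siRNA in WT-labelled cells. It fell in WT-labelled cells by 0.44 and had a change of 0.17 in KO-labelled cells, a difference of -0.61 ± 0.0856 (adjusted p = 0.00235 in limma), and with SET siRNA its KO-labelled libraries lay above the WT-labelled ones. ACD, the shelterin protein TPP1, was 13.01 and 12.7 FPKM with SET siRNA against 11.6 and 10.1 with control siRNA in KO-labelled and 16, 16.1 and 16.9 with SET siRNA against 23.5, 21.4 and 19.2 with control siRNA in WT-labelled cells, a difference of -0.60 ± 0.118 (adjusted p = 0.0105 in limma). It overlaps RLTPR, and its value is uncertain. EXOSC6, a subunit of the RNA exosome, rose in KO-labelled cells by 0.54 and had a change of -0.20 in WT-labelled cells, a difference of -0.74 ± 0.146 (adjusted p = 0.0104 in limma). KIFC3 rose in KO-labelled cells by 0.73 and had a change of 0.04 in WT-labelled cells, a difference of -0.69 ± 0.143 (adjusted p = 0.0127 in limma) that was lost without KO SET siRNA library 1 (adjusted p = 0.0582 in limma).

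**Figure D5:**
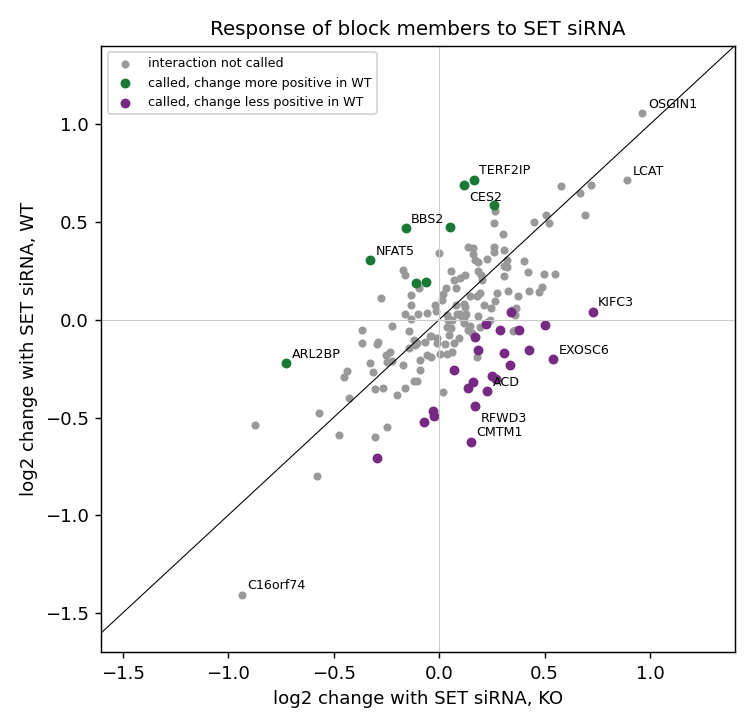
Log2 change with SET siRNA against control siRNA on the log2(FPKM + 1) scale in KO-labelled (x axis) and WT-labelled cells (y axis) for members of the block without the 2 small nucleolar RNAs. Coloured points are the 9 and 24 members whose responses were called different in limma, the diagonal marks equal responses, and members named in the text are labelled.

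Repair and telomere genes thus stood on both sides of the interaction, with TERF2IP positive and ACD, RFWD3 and FANCA negative. FANCA fell in WT-labelled cells by 0.32 and had a change of 0.16 in KO-labelled cells, a difference of -0.48 ± 0.0955 (adjusted p = 0.0107 in limma) that was lost without KO SET siRNA library 1 (adjusted p = 0.0537 in limma). The focal adhesion gene BCAR1 fell in WT-labelled cells by 0.47 and had a change of -0.03 in KO-labelled cells (difference -0.44, adjusted p = 0.0447 in limma). Of the 10 fits that left out 1 library, only those without KO control siRNA library 1 or WT control siRNA library 3 kept this call (adjusted p = 0.0531 to 0.138 in the others in limma), and without KO control siRNA library 2 the difference was -0.28. Of the 9 members with a positive difference 7 had a promoter window and 0 of these held the p53 half-site, and of the 24 with a negative difference 20 had one and 1 held it, the RFWD3 window printed above. No match says only that the letters are absent from a window.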

How the data were processed

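RNA-seq libraries of U2OS-derived lines were analysed from the deposited gene tables. The authors deposited FPKM, with bounds of an interval and a status for every entry according to the column names. Cufflinks 2.0.2, TopHat2 2.0.4 and bcl2fastq 1.8.4 are named in the submitters' processing notes. Libraries were made with TruSeq kits from total RNA per the labels' protocols. No source used here gives the genome build, annotation, strandedness or depth. Positions are those of the files, counted from 1, and are not mixed with the GRCh38.p14 positions of the promoter windows.

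Samples were grouped by their titles. The members, role lists and named genes were chosen with earlier results of these data known. KO-labelled over WT-labelled values are log2 ratios of mean FPKM. For tests, the 14813 of 25593 entries that reached FPKM 1 in 2 or more libraries were taken as log2(FPKM + 1), which understates changes of low genes. All 10 libraries in 4 groups entered a single fit with limma 3.58.1 (lmFit, contrasts.fit, eBayes with trend, in R 4.3.3). A gene was called where its p, adjusted over all tested genes by Benjamini-Hochberg, was below 0.05. The procedure was tested on simulated data. Windows of 15 neighbouring genes had mean FPKM of at least 5. For GC-centred values, the deviation of each gene from its own mean over the libraries was taken. In each library the median deviation in the same one of 20 classes of transcript G and C content was subtracted. Those medians came from tested genes that are not members. Transcript composition came from GENCODE release 29 by symbol and promoters from RefSeq.

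Named genes were the 8 lowest and 5 highest ratios with control siRNA, the 3 nearest the median, the 3 nearest each bound on either side, 3 on either side of the FPKM threshold, the 3 most abundant of each role list, the symbols left out, and the 5 largest called changes in each direction per siRNA contrast and interaction. Alternatives were a pseudocount of 0.1, other filters and member thresholds of 1 and 10, median-of-ratios scaling, array weights, fewer libraries in the fit, a replicate block, windows of 30 genes and leaving out each library. Python 3.11.15 did the remaining work. A few genes that the rule for named genes covers, or that were checked beside it, are not reported here.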

Additional observations from a re-analysis of the deposited data

Results flagged for a closer look

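For 10 members limma's test of the difference between lines in the change with SET siRNA passed the threshold, taken as WT-labelled minus KO-labelled on the log2(FPKM + 1) scale. It was positive for NFAT5 at 0.63, BBS2 at 0.63, CES2 at 0.57, TERF2IP at 0.55 and ARL2BP at 0.50. It was negative for CMTM1 at -0.77, EXOSC6 at -0.74, KIFC3 at -0.69, RFWD3 at -0.61 and ACD at -0.60. These are the 5 called members at either end, out of 9 positive and 24 negative. KO control siRNA library 2, which stood apart in base composition, enters each of these values, and without it the differences were 0.55 for NFAT5, 0.58 for BBS2, 0.68 for CES2, 0.54 for TERF2IP, 0.50 for ARL2BP, -0.72 for CMTM1, -0.59 for EXOSC6, -0.52 for KIFC3, -0.66 for RFWD3 and -0.50 for ACD. The call of CMTM1 was lost in that setting. After centring on genes of like base composition none of the 10 calls was lost, and base composition was not tested further for each gene. No group had 4 or more libraries, so single libraries were not tested as outliers.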

How the results depend on the processing

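The median ratio of KO-labelled to WT-labelled cells stayed below 0 in each alternative run. With SET siRNA it was -0.41 after median-of-ratios scaling, -0.46 with a mean FPKM of at least 1 for a member, and on the log2(FPKM + 1) scale -0.40, against -0.42 with a pseudocount of 0.1. Leaving out 1 library at a time gave -0.44 to -0.41 with SET siRNA and -0.57 to -0.48 with control siRNA. Windows of 30 genes reached from -0.58 to -0.16 with SET siRNA and from -0.81 to -0.22 with control siRNA. Leaving out 1 library gave 44 to 55 members higher and 36 to 53 lower with SET siRNA in WT-labelled cells, and 34 to 61 and 14 to 25 in KO-labelled cells. A fit of the KO-labelled libraries alone gave 27 and 11 there, and GC-centred values, chosen after seeing the data, gave 39 lower. Positive interactions numbered 7 to 18 without 1 library, 20 with GC-centred values and 14 with the left-out symbols kept, and negative ones 8 to 37. None of the siRNA or interaction calls named in the text reversed, and those lost without 1 library are given above. Array weights ended the calls of SNORA50 and TERF2IP in KO-labelled cells (adjusted p = 0.0888 and 0.127 in limma). A fit of the KO-labelled libraries alone ended those of JPH3, ST3GAL2, MAP1LC3B, NFAT5 and TERF2IP there (0.0709 to 0.186), and median-of-ratios scaling that of TERF2IP (0.0857). With no filter TERF2IP in KO-labelled cells and the interactions of CHMP1A and BCAR1 were not called (0.0529 to 0.0739), and with GC-centred values MAP1LC3B and TERF2IP in KO-labelled cells and the CHMP1A interaction were not (0.0518 to 0.0748).

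Whether replicate numbers pair the libraries was not settled. Deviations of same-numbered libraries correlated between -0.08 and 0.23 across genes, and those of differently numbered libraries between -0.23 and 0.15. The highest value, 0.23, was between control siRNA libraries 2 of the lines. In a group of 2 libraries the deviations mirror each other, so these values cannot decide the question. With replicate number as a block, 57 members were higher and 49 lower with SET siRNA in WT-labelled cells, 62 and 22 in KO-labelled cells, and 13 and 29 had positive and negative interactions. Depth was not given, and 2 libraries per KO-labelled group limit the precision. The causes of the changed counts were not tested.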
